A study of Homo sapiens with 6 samples.

Results

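The expression of 10 genes of the death receptor and TNF receptor pathway was examined in H69AR cells after transfection of an siRNA against TREX1. The 10 genes are the receptors FAS, TNFRSF10A, TNFRSF10B, TNFRSF1A, TNFRSF12A and TNFRSF21, the adaptors FADD and RIPK1, the protease CASP8 and its inhibitor CFLAR. They were taken by symbol from a matrix of 27852 genes, and all 10 are listed in it. H69AR is an adherent, nonneuroendocrine line selected for resistance to adriamycin from the small cell lung cancer line H69, so both groups come from a single established line. RNA was sequenced from 3 libraries labelled siTREX1 (siRNA #1) and 3 libraries labelled siCtrl (control siRNA), all on day 3 after transfection. The transfection is transient and uses a single siRNA sequence, and TREX1 is the cytoplasmic exonuclease whose function the experiment was designed to address. Nothing in the labels says that the replicates are separate cultures, and the p-values therefore reflect only how much these libraries differ among themselves, which may be technical variation.

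Death receptors are members of the TNF receptor family that carry a death domain in their cytoplasmic tail. When a ligand such as FAS ligand or TRAIL binds, FAS, TNFRSF10A (TRAIL-R1) or TNFRSF10B (TRAIL-R2) recruits FADD, which in turn gathers caspase-8 into a complex where the protease activates itself, and CFLAR (c-FLIP) enters the same complex and limits this activation. TNFRSF1A (TNFR1) binds TNF and first builds a membrane complex around RIPK1 that signals to NF-kB, and a later complex of RIPK1, FADD and caspase-8 can lead to cell death. TNFRSF12A (Fn14), the receptor for TWEAK, has no death domain and signals through TRAF proteins, whereas TNFRSF21 (DR6) has one. Small cell lung cancers are known for frequent silencing of caspase-8.

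The matrix pairs each gene symbol with 1 transcript, and for CFLAR that choice separates 2 forms of the protein. The listed transcript, CFLAR-203, has a coding sequence of 221 codons, the length of the short form of c-FLIP. The transcript CFLAR-201 encodes 480 codons and represents the long form, whose caspase-like domain lacks protease activity. Both lie on the plus strand of chromosome 2 and share their first 606 coding bases, up to an exon junction, after which CFLAR-203 reads 60 bases of its own and CFLAR-201 reads 837, stop codons included. The junctions are shown because the CFLAR values below are listed under the first of these transcripts, with the shared bases in lower case and the bases of each transcript alone in capitals (GENCODE 29, GRCh38).
CFLAR-203: tcaaataacttcaggATGATAACACCCTAT
CFLAR-201: tcaaataacttcaggCTCCATAATGGGAGA
In all, 10 of the 19 coding transcripts of CFLAR have a longer coding sequence than the listed one. For CASP8 the listed transcript has a coding sequence of 1392 nt, and 3 of its 16 coding transcripts are longer. For TNFRSF12A, 1 of the 6 coding transcripts has a longer coding sequence than the listed one. The other 7 genes are listed with their longest coding sequence. Whether a value covers the listed transcript alone or the whole gene is not given in the sources used here. The name of the matrix speaks of a filter on maximum counts without stating its rule. If a value covers the transcript alone, the levels, ranks and ratios below compare transcripts and not whole genes. Transcripts that the matrix does not pair with a symbol were not analysed here.

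On GRCh38, TNFRSF12A spans 3018445 to 3022383 on chromosome 16 (plus strand), and its listed transcript is 1033 nt long with 64.2% GC, the highest of the 10. RIPK1 spans 3063991 to 3115187 on chromosome 6 (plus strand) and FADD 70203163 to 70207390 on chromosome 11 (plus strand). TNFRSF1A lies on the minus strand of chromosome 12 from 6328757 to 6342114, TNFRSF21 on the minus strand of chromosome 6 from 47231532 to 47309905, and FAS on the plus strand of chromosome 10 from 88990582 to 89015785. CFLAR (201116104 to 201176687) and CASP8 (201233443 to 201287711) follow each other on the plus strand of chromosome 2. Exons of TNFRSF12A overlap exons of CLDN6 on the opposite strand, and CLDN6 had at most 7 estimated counts in a library labelled siTREX1 and at most 30 in a siCtrl library, far below TNFRSF12A. Exons of TNFRSF10B overlap RHOBTB2 on the opposite strand, which had up to 139 estimated counts in the libraries labelled siTREX1 and up to 164 in siCtrl, and exons of FAS overlap ACTA2, with up to 14 in the libraries labelled siTREX1 and up to 5 in siCtrl. Both exceed the counts of the receptor they overlap. Exons of TNFRSF10A, CFLAR, FADD and RIPK1 overlap antisense genes that were not analysed here, and whether strand was used in quantification is not given in the sources used here.

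The RefSeq promoters of these genes (windows of 300 bases around each start, GRCh38.p14) were searched on both strands for words of transcription factors that act downstream of TNF and interferon. RefSeq windows were at hand for 7 of the 10 genes, 16 windows in all. TNFRSF12A, TNFRSF10A and TNFRSF10B had no window at hand and were not searched. The word of the interferon-stimulated response element (ISRE), 2 copies of GAAA with 2 bases of any kind between them, lay in promoters of RIPK1 and CASP8 and is present in 3.57% of 35116 promoters of the same length. Both matches are on the minus strand, so the copies read as TTTC below. The AP-1 words TGACTCA and TGAGTCA, which are reverse complements of each other, lay in 2 promoters of CASP8 and in 4.95% of all promoters. The NF-kB word, GGGA and TTTCC with 1 base of any kind between them, lay in none of the 16 windows and in 0.558% of all promoters. The 4 matches are shown on the plus strand with the word in capitals and 10 or 11 neighbouring bases on each side.
RIPK1, ISRE, chr6:3068301-3068330: cgcgcggaggTTTCGGTTTCctcttttacg
CASP8, ISRE, chr2:201233450-201233479: gagtttttggTTTCTGTTTCaccttgtgtc
CASP8, AP-1, chr2:201258023-201258051: tcttgttcgagTGAGTCAtctctgttctg
CASP8, AP-1, chr2:201260464-201260492: tctagtgtttgTGACTCAggagtttcgaa
The RIPK1 word begins 67 bases before 1 RefSeq start and 183 bases before another. The CASP8 words begin 3, 1 and 61 bases before their starts. No word was found in the windows of FAS, TNFRSF1A, TNFRSF21, FADD or CFLAR. The shares of all promoters count single windows, while RIPK1 and CASP8 each had more than 1 window. No enrichment can therefore be read from them. A match describes the letters of the window only.

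The libraries held 16329106 to 22482687 estimated counts each, and 13221 genes passed the filter on low values. TREX1 had 594, 298 and 301 estimated counts in the libraries labelled siTREX1, against 506, 513 and 509 in siCtrl. These counts are not scaled to library size. Once scaled, TREX1 was at 22.7, 31.5 and 24.7 CPM in siCtrl and at most 18.2 CPM in siTREX1 replicates 2 and 3. The library labelled siTREX1 replicate 1 was at 28.4 CPM, inside the siCtrl range, so it does not show the lower level its label implies. TREX1 is listed under a transcript with 525 coding nt, and 2 of its 6 coding transcripts are longer. Because of that library, the results of the tested genes of the 10, and of the genes named by rule and called in the lists below, are also given without it. The genes nearest in profile to TNFRSF12A are given with all 6 libraries only. The log2 fold change of TREX1 was -0.33 (standard error 0.24, adjusted p = 0.349). This and every adjusted p below come from the quasi-likelihood test of edgeR, adjusted by the Benjamini-Hochberg method over all tested genes. The value of TREX1 was -0.62 without replicate 1 (adjusted p = 0.0499). The nonneuroendocrine state described for H69AR was matched by some markers and not by others. NEUROD1, CHGA and NCAM1 were at most 0.143 CPM in every library, while VIM was at 2498 to 2535 CPM. The other nonneuroendocrine markers were at 26.4 to 88.2 CPM (YAP1, CD44 and CAV1), 11.7 to 14.9 CPM (REST) and 1.34 to 1.54 CPM (AXL). CAV1 was higher (log2 fold change 0.48, adjusted p = 0.000796) and REST lower (-0.25, adjusted p = 0.0380). Other neuroendocrine genes were detected, with DLL3 at 18.6 to 27.5 CPM, INSM1 at 12.4 to 16.8 CPM and SYP at 1.88 to 3.01 CPM. The summed level of 6 neuroendocrine genes was 33.4 to 36.4 CPM in the libraries labelled siTREX1 and 43.7 to 45.4 CPM in siCtrl. DLL3 was lower (log2 fold change -0.44, adjusted p = 0.00401 with all 6 libraries). The 4 epithelial markers summed to 131 to 145 CPM in the libraries labelled siTREX1 and 177 to 186 CPM in siCtrl, through KRT8 and KRT18 with CDH1 at 0 in all 6. The part of these shifts in the results below was not tested. Of the markers of other cell types, the summed level of 5 immune genes was 9.24 to 13.6 CPM in the libraries labelled siTREX1 and 6.82 to 12.6 CPM in siCtrl (MS4A1 at 0 in all 6). The 3 endothelial genes summed to 0 to 0.483 CPM in the libraries labelled siTREX1 and 0.246 to 1.55 CPM in siCtrl. The 4 fibroblast genes summed to 2107 to 2214 CPM in the libraries labelled siTREX1 and 2228 to 2248 CPM in siCtrl, nearly all from the collagens COL1A1 and COL1A2 with PDGFRB and DCN at or near 0. In bulk RNA, fewer cells of a type and less RNA per cell cannot be told apart.

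The receptors and their signalling proteins did not move together. TNFRSF12A, RIPK1 and FADD rose and TNFRSF1A fell, TNFRSF21, CFLAR and CASP8 did not pass the test, and FAS, TNFRSF10A and TNFRSF10B were too low to be tested. This is 3 of 7 tested genes higher and 1 lower at an adjusted p under 0.05. Across all 13221 tested genes the test called 33.3%, with 17.8% higher and 15.5% lower. The median log2 fold change of the 7 tested genes was -0.088, and that of all tested genes was -0.018. The siTREX1-labelled and siCtrl libraries did not overlap for the same 4 genes, where 50.4% of all tested genes showed no overlap. Of the 4, TNFRSF12A, RIPK1 and TNFRSF1A changed by at least 1.5-fold, which 11.0% of all tested genes did with an adjusted p under 0.05.

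**Figure D1:**
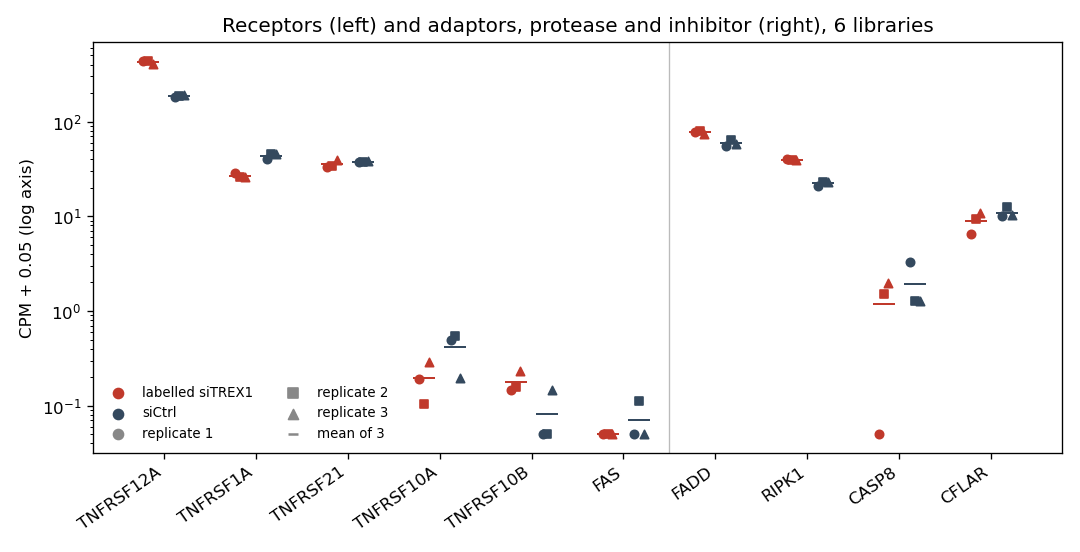
Level of the 10 genes in each library, as CPM plus 0.05 on a log axis, with the libraries labelled siTREX1 in red to the left of siCtrl in dark blue, symbols for replicates 1 to 3 and a bar for the mean of 3. The groups are apart for TNFRSF12A, TNFRSF1A, FADD and RIPK1, CASP8 is at 0 in the library labelled siTREX1 replicate 1, and TNFRSF10A, TNFRSF10B and FAS lie below 0.5 CPM in every library.

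Among the receptors, TNFRSF12A was the most abundant, and of the 3 tested receptors it had the largest change. Its level was 434, 435 and 403 CPM in the libraries labelled siTREX1 replicates 1, 2 and 3, against 180, 184 and 193 CPM in siCtrl. All 3 siTREX1-labelled libraries thus lay above every siCtrl library, with a mean of 424 ± 18.1 CPM, against 186 ± 6.49 CPM in siCtrl (SD, n = 3 each). The log2 fold change was 1.19 (standard error 0.04, 95% interval 1.09 to 1.29, adjusted p = 4.94e-05 by edgeR), a 2.28-fold rise, and it was 1.18 without replicate 1 (adjusted p = 0.000964). TNFRSF12A was more abundant than 97.5% of the tested genes in the libraries labelled siTREX1 and than 93.9% of them in siCtrl. Such ranks can be compared between genes because the estimated counts do not grow with transcript length.

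TNFRSF1A, the main receptor for TNF on most cells, moved the other way. It was at 28.5, 26.0 and 25.6 CPM in the libraries labelled siTREX1 and at 39.9, 45.3 and 44.9 CPM in siCtrl. The groups did not overlap, and the means were 26.7 ± 1.54 CPM in the libraries labelled siTREX1 and 43.4 ± 2.99 CPM in siCtrl (SD, n = 3 each). For TNFRSF1A the log2 fold change was -0.70 (standard error 0.07, 95% interval -0.87 to -0.52, adjusted p = 0.00117 by edgeR) and -0.74 without replicate 1 (adjusted p = 0.00448). The ratio of TNFRSF12A to TNFRSF1A within a library, which needs no scaling between libraries, was 15.2, 16.7 and 15.7 in the libraries labelled siTREX1 and 4.52, 4.06 and 4.30 in siCtrl. This ratio was chosen after the values were seen and is given as a description.

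TNFRSF21, which carries a death domain and is best known from neurons and lymphocytes, had 32.8, 34.3 and 39.0 CPM in the libraries labelled siTREX1 and 37.0, 37.5 and 38.0 CPM in siCtrl. The groups overlapped, and replicate 3 was the highest of the siTREX1-labelled libraries. The log2 fold change of TNFRSF21 was -0.088 with a 95% interval from -0.26 to 0.086 (adjusted p = 0.399 by edgeR), and -0.033 without replicate 1 (adjusted p = 0.777). The interval of TNFRSF21 therefore leaves out changes of the size seen for TNFRSF12A or TNFRSF1A.

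The receptors of FAS ligand and TRAIL were close to the limit of detection. FAS had 0, 0 and 0 estimated counts in the libraries labelled siTREX1 and 0, 1 and 0 in siCtrl. If estimated counts are taken as reads, a count of 0 allows up to 3 counts. This is 0.144 to 0.181 CPM in the libraries labelled siTREX1 and 0.135 to 0.184 CPM in siCtrl. The values are not read numbers, so this limit is approximate. TNFRSF10A had 3, 1 and 4 counts in the libraries labelled siTREX1, against 10, 8 and 3 in siCtrl. TNFRSF10B had 2, 2 and 3 counts in the libraries labelled siTREX1, against 0, 0 and 2 in siCtrl. None of the 3 genes passed the filter, so no fold change is given for them and the main test did not compare the groups. The 4 TRAIL receptor genes resemble each other in sequence, and a split of reads between them was not tested. The decoy receptor TNFRSF10C had 0 counts in every library. TNFRSF10D, also a decoy, had 0, 1 and 0 counts in the libraries labelled siTREX1 and 0, 0 and 0 in siCtrl.

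**Figure D2:**
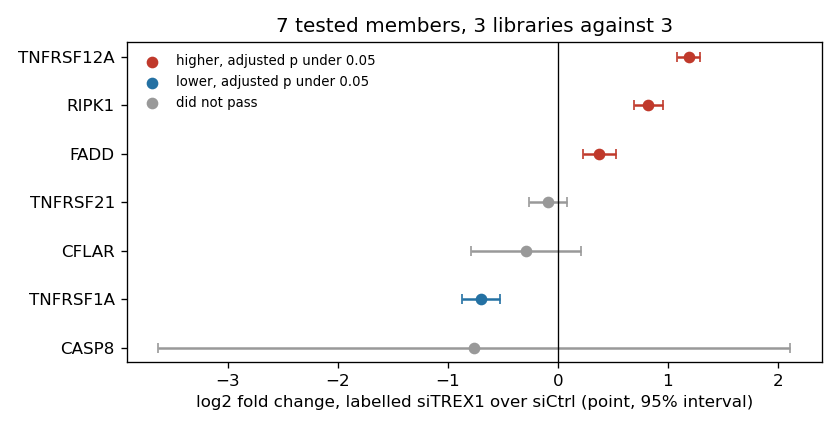
Log2 fold change of the 7 tested genes, libraries labelled siTREX1 over siCtrl, with 95% intervals from edgeR (3 libraries against 3). The intervals of TNFRSF12A, RIPK1 and FADD lie above 0 and that of TNFRSF1A below 0, while the interval of CASP8 runs from -3.63 to 2.12.

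Of the adaptors, RIPK1 rose more than FADD. RIPK1, the kinase that scaffolds the TNFR1 complex and can also start necroptosis, was at 40.2, 38.9 and 39.2 CPM in the libraries labelled siTREX1 and at 21.0, 22.8 and 23.1 CPM in siCtrl. The 2 groups were well separated, at 39.4 ± 0.651 CPM in the libraries labelled siTREX1 and 22.3 ± 1.17 CPM in siCtrl (SD, n = 3 each). Its log2 fold change was 0.82 (standard error 0.06, 95% interval 0.69 to 0.96, adjusted p = 0.000289 by edgeR), and 0.81 without replicate 1 (adjusted p = 0.00279).

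FADD, the adaptor that joins death receptors to caspase-8, had 77.2, 79.6 and 73.7 CPM in the libraries labelled siTREX1 and 55.5, 64.0 and 58.4 CPM in siCtrl. The lowest siTREX1-labelled library was above the highest siCtrl library, and the means were 76.8 ± 2.94 CPM in the libraries labelled siTREX1 and 59.3 ± 4.33 CPM in siCtrl (SD, n = 3 each). FADD was higher by 0.38 on the log2 scale (standard error 0.06, 95% interval 0.23 to 0.53, adjusted p = 0.00578 by edgeR), and 0.38 without replicate 1 (adjusted p = 0.0228). The intervals of RIPK1 and FADD do not overlap. The ratio of RIPK1 to FADD within a library was 0.521, 0.489 and 0.532 in the libraries labelled siTREX1 and 0.378, 0.357 and 0.395 in siCtrl, again as a description chosen after the values were seen.

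The protease and its inhibitor showed no change that passed the test. CASP8 had 0, 27 and 32 estimated counts in the libraries labelled siTREX1 and 72, 20 and 25 in siCtrl. The values of replicate 1 stood apart in both groups, at the bottom in the libraries labelled siTREX1 and at the top in siCtrl, and the remaining 4 libraries lay between 20 and 32 counts. For CASP8 the log2 fold change was -0.76 with a 95% interval of -3.63 to 2.12 (adjusted p = 0.664 by edgeR), so large changes in either direction stayed within the error. It was -0.16 without siTREX1 replicate 1 (adjusted p = 0.868) and -0.12 without siCtrl replicate 1 (adjusted p = 0.962). At 1.13 ± 1.01 CPM in the libraries labelled siTREX1 and 1.89 ± 1.16 CPM in siCtrl (SD, n = 3 each), CASP8 was above 9.3% of the tested genes in the libraries labelled siTREX1 and above 13.0% in siCtrl. Its close relative CASP10, which can also be recruited by FADD, was at 0.215 to 0.622 CPM in the libraries labelled siTREX1 and 0.553 to 0.942 CPM in siCtrl and did not pass the test (log2 fold change -0.72, adjusted p = 0.361).

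CFLAR, listed under a transcript of its short form, had 135, 174 and 179 estimated counts in the libraries labelled siTREX1 and 223, 202 and 209 in siCtrl. Scaled to library size the groups overlapped, with 6.46, 9.34 and 10.8 CPM in the libraries labelled siTREX1 and 10.01, 12.4 and 10.1 CPM in siCtrl. Replicate 1 was again the lowest of the siTREX1-labelled libraries. The log2 fold change was -0.29 with a 95% interval of -0.79 to 0.21 (adjusted p = 0.329 by edgeR), and -0.10 without replicate 1 (adjusted p = 0.652).

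Because c-FLIP and caspase-8 compete for the same complex, their ratio was also compared. The log2 ratio of CFLAR to CASP8 (0.5 added to each) was 8.08, 2.67 and 2.47 in the libraries labelled siTREX1 and 1.62, 3.30 and 3.04 in siCtrl. The value listed for CFLAR exceeded that for CASP8 in all 6 libraries, with each gene listed under 1 of several coding transcripts. The means differed by 1.75 (exact permutation test, two-sided p = 0.6, where 3 libraries against 3 allow no p below 0.1). That difference rests on the library labelled siTREX1 replicate 1, in which CASP8 is at 0, and it was -0.090 without it.

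**Figure D3:**
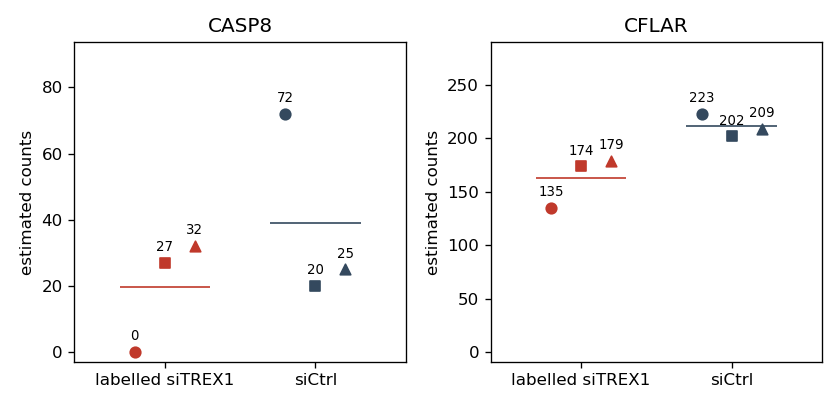
Estimated counts of CASP8 (left) and CFLAR (right) in the 6 libraries, labelled siTREX1 in red and siCtrl in dark blue, with circles, squares and triangles for replicates 1, 2 and 3 and a bar for the mean of 3. For CASP8 the 2 libraries numbered 1 are at 0 and 72, and the other 4 lie between 20 and 32. For CFLAR all 6 libraries lie between 135 and 223.

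The order of the 10 genes by level changed in its middle. In siTREX1-labelled libraries the order of mean CPM was TNFRSF12A, FADD, RIPK1, TNFRSF21, TNFRSF1A, CFLAR, CASP8, TNFRSF10A, TNFRSF10B and FAS. There the CPM ranges of RIPK1 and TNFRSF21, of CASP8 and TNFRSF10A, and of TNFRSF10A and TNFRSF10B overlapped, so these neighbours were not separated beyond their spread. In siCtrl the order was TNFRSF12A, FADD, TNFRSF1A, TNFRSF21, RIPK1, CFLAR, CASP8, TNFRSF10A, TNFRSF10B and FAS, and the CPM ranges of TNFRSF10B and FAS overlapped. With the approximate limit of 3 counts for a count of 0, the order of TNFRSF10A, TNFRSF10B and FAS is not resolved in the libraries labelled siTREX1. In siCtrl, TNFRSF10A had 10, 8 and 3 counts, and its CPM range did not overlap that of TNFRSF10B. Its lowest count equals that limit, so the order of these genes is not firmly resolved in siCtrl either. By mean CPM, RIPK1 and TNFRSF1A thus exchanged their places around TNFRSF21. The place of RIPK1 above TNFRSF21 in the libraries labelled siTREX1 is not resolved, because their ranges overlapped there. TNFRSF12A alone made up 70.1%, 69.6% and 67.9% of the summed level of the 10 genes in the libraries labelled siTREX1 and 51.9%, 50.0% and 52.3% in siCtrl.

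The 3 tested genes whose centred log2 profile over the 6 libraries was nearest to that of TNFRSF12A were SRSF1 (Euclidean distance 0.0687), LBH (0.128) and NEDD9 (0.133). SRSF1 encodes a splicing factor of the SR family, LBH a transcriptional cofactor and NEDD9 a scaffold of focal adhesions. Their log2 fold changes were 1.16, 1.14 and 1.25, against 1.19 for TNFRSF12A. The genes were picked for the closeness of these profiles, so similar fold changes follow from the choice. A shared regulation was not tested.

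Ligands for these receptors were scarce in the cells themselves. Of 19 ligands of the TNF family, all listed, 6 were at 0 in every library and 3 passed the filter, with none called in either direction and a median log2 fold change of -0.63. FASLG, TNFSF10 (TRAIL) and LTA were at most 0.603 CPM in the libraries labelled siTREX1 and at most 0.553 CPM in siCtrl, with LTA at 0 in all 6. TNF was at 0, 2.15 and 0 CPM in the libraries labelled siTREX1 and at 0, 0 and 0.0485 CPM in siCtrl, so replicate 2 alone carried a signal. TNFSF12, which encodes TWEAK, the ligand of TNFRSF12A, was at 2.34, 1.29 and 1.57 CPM in the libraries labelled siTREX1 and at 1.84, 2.76 and 2.77 CPM in siCtrl, and its log2 fold change was -0.50 with a standard error of 0.33 (adjusted p = 0.302 by edgeR). The groups overlapped for TNFSF12. TNFSF13 (APRIL) had -0.63 (adjusted p = 0.0674) and TNFSF9 (4-1BB ligand) -0.73 (adjusted p = 0.152).

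Of 23 other receptors of the family, 10 were tested, 3 were higher, 2 were lower and 5 did not pass, with a median log2 fold change of 0.015. Over all tested genes 33.3% were called, 17.8% higher and 15.5% lower. TNFRSF25 (DR3), a death domain receptor close to TNFRSF1A, was at 5.02, 4.19 and 2.59 CPM in the libraries labelled siTREX1 and at 9.06, 10.4 and 8.88 CPM in siCtrl. It fell by 1.26 on the log2 scale (standard error 0.25, adjusted p = 0.0106 by edgeR), with -1.47 without replicate 1 (adjusted p = 0.0136). TNFRSF9 (4-1BB) had a log2 fold change of 1.38 (adjusted p = 0.0263) at under 2 CPM, RELT 0.34 (adjusted p = 0.0378), TNFRSF19 0.21 (adjusted p = 0.0250) and TNFRSF13C (the BAFF receptor) -1.17 (adjusted p = 0.0330). Without the library labelled siTREX1 replicate 1, TNFRSF9 had 1.51 (adjusted p = 0.0607), RELT 0.31 (adjusted p = 0.105), TNFRSF19 0.23 (adjusted p = 0.0521) and TNFRSF13C -1.16 (adjusted p = 0.0911). None of the 4 then passed, with 2 libraries against 3 and differences of similar size. TNFRSF18 (GITR) did not pass, at -0.50 (adjusted p = 0.198). The second TNF receptor, TNFRSF1B, and the TRAIL decoy receptor TNFRSF10C were at 0 in all 6 libraries.

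In the complex that forms below TNF receptors, 25 genes were listed, 23 were tested, 3 were higher and 1 was lower, with a median log2 fold change of 0.062 and 19 genes that did not pass, where 33.3% of all tested genes were called. TNFAIP3 (A20), a ubiquitin-editing enzyme that dampens signals from this complex and is itself a target of NF-kB, was at 6.94, 7.14 and 7.60 CPM in the libraries labelled siTREX1 and at 1.93, 1.97 and 1.70 CPM in siCtrl. All 3 siTREX1-labelled libraries lay above every siCtrl library, and the log2 fold change of TNFAIP3 was 1.95 (standard error 0.15, adjusted p = 0.000413 by edgeR) and 1.98 without replicate 1 (adjusted p = 0.00345). RNF31 (HOIP), the catalytic subunit of the linear ubiquitin ligase, fell by 0.50 on the log2 scale (standard error 0.09, adjusted p = 0.00737). CHUK (IKK alpha) rose by 0.34 (adjusted p = 0.0131) and TBK1, a related kinase, by 0.21 (adjusted p = 0.0462). Without replicate 1 the adjusted p was 0.0126 for RNF31, 0.0291 for CHUK and 0.0365 for TBK1. The call of TBK1 was lost with 4 of the other libraries left out in turn (adjusted p = 0.0795 to 0.125). The adaptors TRAF2 and TRAF3 had 0.15 (adjusted p = 0.104) and -0.13 (adjusted p = 0.0960).

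Among genes that act with or below caspase-8, 22 of 23 were listed, 21 were tested, 4 were higher and 3 were lower, and the median log2 fold change was 0.027. The share called was that of all tested genes, 33.3%. The higher genes included the mitochondrial proteins CYCS (cytochrome c) and DIABLO (SMAC), which promote caspase activation once released. CYCS was at 292, 251 and 265 CPM in the libraries labelled siTREX1 and at 191, 195 and 165 CPM in siCtrl. The groups did not overlap, and CYCS was higher by 0.55 on the log2 scale (standard error 0.08, adjusted p = 0.00403), DIABLO 0.40 (standard error 0.05, adjusted p = 0.00278) and CUL3, a ubiquitin ligase scaffold that acts on caspase-8, 0.27 (standard error 0.03, adjusted p = 0.00201). CASP9, the initiator caspase of the mitochondrial route, was at 4.83, 5.59 and 5.19 CPM in the libraries labelled siTREX1 and at 8.48, 9.46 and 10.3 CPM in siCtrl. It fell by 0.86 on the log2 scale (standard error 0.12, adjusted p = 0.00370 by edgeR), and DEDD2, a protein with a death effector domain, fell by 0.63 (standard error 0.13, adjusted p = 0.0137). FAF1 fell by 0.28 (adjusted p = 0.0301), and DAXX, outside the rule for named genes, was at 0.25 (adjusted p = 0.0492 with all 6 libraries). Both are known as binding partners of FAS. RIPK3, the kinase that works with RIPK1 in necroptosis, had a CPM above 0 in 1 siCtrl library only, at 0.0614, and did not pass the filter. Without siTREX1 replicate 1 the adjusted p was 0.0157 for CASP9, 0.0131 for CYCS, 0.0130 for DIABLO, 0.0105 for CUL3 and 0.0496 for DEDD2, and FAF1 did not pass at 0.0863. In all, 3 genes of this list were then higher and 2 were lower.

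**Figure D4:**
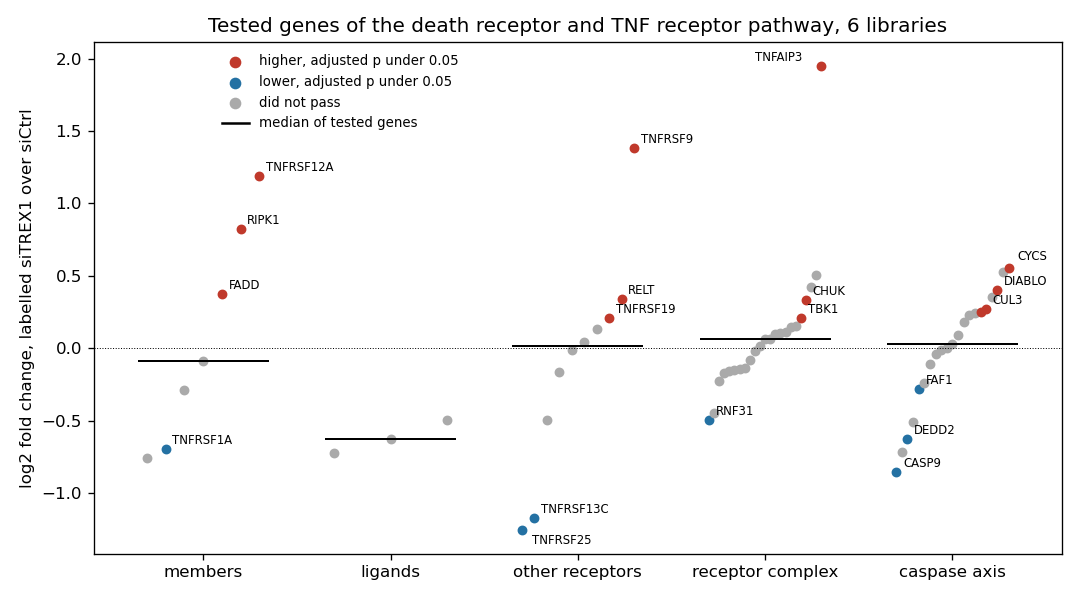
Log2 fold change of the tested genes, libraries labelled siTREX1 over siCtrl, for the 10 genes chosen by name (marked members) and for the 4 lists around them, with higher genes in red, lower genes in blue, genes that did not pass in grey and a bar at the median of each list. TNFAIP3 has the highest value at 1.95 and TNFRSF25 the lowest at -1.26, and the medians of 3 of the 4 lists lie near 0, with the 3 tested ligands at -0.63.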

How the data were processed

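Strand-specific libraries of total RNA from H69AR cells were sequenced in 3 libraries labelled siTREX1 and 3 labelled siCtrl. The authors quantified reads with kallisto and summarised them with tximport, and the deposited values are estimated counts (scaledTPM), scaled to the depth of a library and independent of transcript length, and so no read numbers. FastQC and hg19 stand in the processing notes of the submitters. The version of kallisto is not given in the sources used here, nor is the rule that pairs 1 transcript with each symbol. Of the 27852 listed transcripts, 99.3% are in GENCODE 29 (GRCh38), from which lengths, GC content and coordinates were taken, with none converted between builds. No column belonged to another series. A line with no symbol held 0.0925% to 0.109% of the counts and was left out.

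The deposited estimated counts were rounded and tested with edgeR 4.0.16 (R 4.3.3) by the robust quasi-likelihood test, with TMM factors, filterByExpr (minimum count 10) and Benjamini-Hochberg adjustment over 13221 genes, and genes with an adjusted p under 0.05 were called. The test was checked on simulated counts with planted changes. It recovered 31 of 66 changes of 1.5-fold, 38 of 65 of 2-fold and 51 of 65 of 4-fold. Of 12684 unchanged genes, 5 were called. A gene that did not pass can therefore still have changed. Standard errors came from the F statistic of each gene and its fold change, and 95% intervals from the t distribution with the test's degrees of freedom. Limits from counts of 0 cover counting error only and treat estimated counts as read numbers, which they are not. No 2 libraries were identical, and chi-square per degree of freedom within groups was 6.75 to 10.4. CPM were scaled by TMM factors. Profiles were compared on log2(CPM + 0.5).

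Genes and lists were chosen with earlier results of these data known. Named genes were all 10, TREX1, the ligands of the 10, up to 6 genes with the lowest p of each list and the 3 nearest profiles to the called gene with the largest change. Some genes of these lists are not reported here. Others are named as outside that rule or as zero values. Alternatives were DESeq2 1.42.0 and limma-voom (limma 3.58.1), scaling by RLE or by library sizes alone, testing without a filter or with 10 counts or more everywhere, a GC trend removed, a replicate block, and each library left out.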

Additional observations from a re-analysis of the deposited data

How the results depend on the processing

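All 7 tested genes of the 10 kept their direction and their side of the threshold in 104 of 104 comparisons over 15 alternatives (14 for CASP8, which was not tested with at least 10 counts in all libraries). TNFRSF12A ranged from 1.17 to 1.37 on the log2 scale (adjusted p at most 0.00497), RIPK1 from 0.78 to 0.85 (at most 0.00771), FADD from 0.33 to 0.46 (at most 0.0266), TNFRSF1A from -0.76 to -0.63 (at most 0.0141), TNFRSF21 from -0.16 to -0.033 (at least 0.0592), CFLAR from -0.46 to -0.10 (at least 0.168) and CASP8 from -2.40, by limma-voom, to -0.12 (at least 0.261). The number of genes called across the table was 3226 to 5087, and 3226 to 3725 with 1 library left out, against 4398. With 1 library left out, TREX1 ranged from -0.62 to -0.16. The first is without siTREX1 replicate 1 (adjusted p = 0.0499 by edgeR), the second without siTREX1 replicate 2 (adjusted p = 0.664). The log2 ratio of CFLAR to CASP8 reversed to -0.090 without siTREX1 replicate 1 and reached 2.72 without siTREX1 replicate 3. For 22 other named genes, which are TREX1 and those named by rule from the lists, 278 of 329 comparisons kept direction and call. Calls were lost for TNFRSF9 in 9 alternatives (every left-out library among them), TBK1 in 8, RELT in 7, TNFRSF13C, TNFRSF19 and FAF1 in 6 each, DEDD2 in 2 and CHUK in 1. Higher calls among the other receptors were 0 or 1 against 3 with any library left out, without a filter and with a block, and lower calls 1 against 2 by limma-voom and with any library but siCtrl replicate 3 left out. Ligands called lower were 1 against 0 without siTREX1 replicate 3, by limma-voom or with at least 10 counts in all libraries. In the receptor complex, lower calls were 2 against 1 without siTREX1 replicate 1 and higher calls 1 against 3 without siCtrl replicate 3.

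Whether the replicate numbers pair the samples is not given in the labels, and the main test did not use them. Deviations of same-numbered libraries correlated at 0.0187, 0.0300 and 0.0272, below 0.1, although each library correlated best with its own number, a hint from the data and not from the design. With a replicate block, 3419 genes were called and 4 of the 10 genes were, TREX1 had -0.35, the ratio of CFLAR to CASP8 differed by 1.75, and lower calls in the caspase list were 1 against 3. FAS, TNFRSF10A and TNFRSF10B had counts too low to pass the filter, while CASP8 is limited by the spread between libraries.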
